A study of Mus musculus with 9 samples.

Results

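The genes described here are 37 mouse genes of RNA and DNA sensing, the interferon response and antigen presentation by MHC class I molecules. They were taken by gene symbol from count tables of 40213 symbols, and all 37 symbols were present. They were grouped by role into 13 nucleic acid sensors and their adaptors, 3 interferon receptors, 5 transcription factors of the interferon response, 9 interferon-stimulated effectors, and 7 genes of antigen processing and MHC class I. The RNA came from 9 libraries of mouse embryonic stem (ES) cells kept in ES cell medium with the cytokine LIF. In the EWS-OCT4 line (3 libraries), a stable line that the labels call Niwa, the cells carried EWS, an RNA-binding protein, joined to OCT4, the pluripotency factor encoded by Pou5f1. In the OCT4 line (3 libraries), also called Niwa, they carried OCT4 without the fusion. Both stable lines received 1 µg/ml doxycycline, which was given to reduce the cells' own OCT4. The third group was J1 (3 libraries), a widely used wild-type ES cell line, and the labels do not say whether J1 received doxycycline. The series sets the fusion against OCT4 itself, and both against ordinary ES cells.

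Cells detect foreign nucleic acid through cytosolic helicases such as RIG-I (Rigi) and MDA5 (Ifih1), which signal through the mitochondrial adaptor MAVS, through TLR3 in endosomes, and through the DNA sensor cGAS with its adaptor STING. These routes activate IRF3 and IRF7, which switch on type I interferon genes. Secreted interferon binds IFNAR1 and IFNAR2, and a complex that includes STAT2 and IRF9 then binds interferon-stimulated response elements (ISREs) and induces antiviral effectors, many of the sensors and MHC class I genes. Pluripotent stem cells are known for a weak interferon response and low MHC class I, while they keep some intrinsic antiviral effectors, among them IFITM proteins.

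Library totals ran from 21149358 to 24786305 counts. Of the 37 genes, 31 passed the filter on low counts and were tested. Differences between lines were tested by the quasi-likelihood test of edgeR, with p-values adjusted after Benjamini and Hochberg over all 16562 tested genes and given below as the edgeR adjusted p, and a gene was called higher or lower at an edgeR adjusted p under 0.05. Levels are in CPM, counts scaled to library size. The labels do not say whether the numbered libraries were separate cultures or clones, so the p-values rest on the spread of these libraries alone, and that spread may be technical. Against J1, the construct, the host line and doxycycline change together and cannot be told apart. The ES cell label fitted the 6 pluripotency markers, which summed to between 2690 and 2750 CPM in EWS-OCT4 libraries, 2500 and 2550 CPM in OCT4 libraries and 3870 and 4320 CPM in J1 libraries. Pou5f1 itself averaged 26.8 ± 2.12 CPM in EWS-OCT4, 165 ± 2.61 in OCT4 and 569 ± 61.8 in J1 (SD, n = 3). Of the 6 pluripotency markers, 2 were higher and 2 lower in EWS-OCT4 than in OCT4. Against J1, 1 was higher and 4 were lower in EWS-OCT4, and 1 was higher and 5 were lower in OCT4. Nanog was the marker higher than in J1 in both lines. Markers of other cell types also moved between the lines. The 12 fibroblast or feeder markers summed to between 35.4 and 40.3 CPM in EWS-OCT4, 77.7 and 82.9 in OCT4 and 103 and 119 in J1, with 6 of 12 under 1 CPM in each line. Of the 7 tested, 6 were lower and 1 higher in EWS-OCT4 than in OCT4 and likewise than in J1, and 1 was higher and 2 were lower in OCT4 than in J1. The collagen gene Col1a1 averaged 2.81 CPM in EWS-OCT4, 5.91 in OCT4 and 31.2 in J1, while the muscle actin gene Acta2 averaged 4.37, 0.206 and 0.365 CPM. Dcn, Lum, Postn and Col3a1 stayed at means between 0 and 0.181 CPM in every line. The 8 trophoblast markers summed to between 132 and 138 CPM in EWS-OCT4, 410 and 445 in OCT4 and 106 and 130 in J1. Tfap2c alone averaged 103.5, 215.5 and 91 CPM. All 8 were tested, and 1 was higher and 6 were lower in EWS-OCT4 than in OCT4. Against J1, 5 were higher and 1 lower in EWS-OCT4. In OCT4, 7 were higher than in J1, all by at least 2-fold, and 0 were lower. Cdx2 averaged 1.7, 7.96 and 0.0581 CPM in EWS-OCT4, OCT4 and J1. The 8 haematopoietic markers, of which 3 could be tested, summed to between 18.1 and 21.6 CPM in EWS-OCT4, 13.5 and 15.3 in OCT4 and 12.2 and 15.7 in J1. Itgam averaged 0.361 CPM in EWS-OCT4, 1.07 in OCT4 and 3.54 in J1, Cd3e ran the other way at 3.78, 2.29 and 0.952 CPM, and Cd68 stood at 15.5, 10.8 and 9.44 CPM. Ptprc, which marks all haematopoietic cells, averaged at most 0.123 CPM. The 8 primitive endoderm markers summed to between 300 and 310 CPM in EWS-OCT4, 92.8 and 103 in OCT4 and 154 and 163 in J1. Most of it came from the laminin gene Lama1, which averaged 294.5, 75.75 and 129 CPM and set that order. Of the 7 tested, 2 were higher and 3 lower in EWS-OCT4 than in OCT4. Against J1, 2 were higher and 5 lower in EWS-OCT4, and 1 was higher and 4 were lower in OCT4. Gata6 averaged 0.382, 9.34 and 1.76 CPM in EWS-OCT4, OCT4 and J1, and Sox7 2.71, 0.197 and 0.6 CPM. The 5 endothelial markers summed to between 137 and 146, 126 and 127, and 147 and 154 CPM in EWS-OCT4, OCT4 and J1. Most of this sum came from Pecam1, which averaged 117, 75.7 and 127 CPM and set that order. All 5 were tested, and 1 was higher and 1 lower in EWS-OCT4 than in OCT4. Against J1, 1 was higher and 0 were lower in EWS-OCT4, and 3 were higher and 1 was lower in OCT4. Whether these shifts play a part in the results below was not tested. In bulk libraries, fewer cells that express a gene and less of its RNA per cell cannot be told apart.

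The genes were chosen by name, so letters in their promoters are a separate description. RefSeq promoters (GRCm38.p6, 250 bases before to 50 after the transcription start) were matched for 32 of the 37 genes and searched for the ISRE-like letters, GAAA followed by any 2 bases and GAAA again, on both strands. Overlapping matches were counted. They were present in 12 of the 38 promoters of these genes, or 31.6%, against 3.44% of all 32851 promoters in the table and 2.78% of the promoters of tested genes. The 12 promoters belong to 12 of the 32 genes. By role, 4 of 10 sensors and adaptors, 0 of 3 receptors, 1 of 5 transcription factors, 6 of 8 effectors and 1 of 6 antigen presentation genes had a match. The GAS-like letters, TTC followed by any 3 bases and GAA, after the gamma-activated site (GAS) of interferon-gamma target genes, were present in 10 of the 38 promoters, or 26.3%, against 8.3% of all promoters. These are letter matches, not binding sites. The promoters below are those of the 6 genes with an ISRE-like match that had the highest mean CPM over the 9 libraries, so that a reader can see the letters beside genes that the results turn on. The promoter of Isg15, chosen after its values were seen, was added because it has the most matches and almost no RNA. All are printed 5′ to 3′ on the strand of the gene, with ISRE-like letters in capitals, and capitals that start with TTTC are matches on the opposite strand.
Ifitm2, chr7:140955912-140956211, minus strand: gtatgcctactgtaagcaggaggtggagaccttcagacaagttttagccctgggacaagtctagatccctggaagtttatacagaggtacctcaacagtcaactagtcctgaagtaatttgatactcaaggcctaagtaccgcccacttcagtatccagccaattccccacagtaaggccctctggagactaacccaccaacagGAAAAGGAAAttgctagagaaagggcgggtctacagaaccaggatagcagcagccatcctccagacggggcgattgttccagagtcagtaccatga
Stat2, chr10:128270248-128270547, plus strand: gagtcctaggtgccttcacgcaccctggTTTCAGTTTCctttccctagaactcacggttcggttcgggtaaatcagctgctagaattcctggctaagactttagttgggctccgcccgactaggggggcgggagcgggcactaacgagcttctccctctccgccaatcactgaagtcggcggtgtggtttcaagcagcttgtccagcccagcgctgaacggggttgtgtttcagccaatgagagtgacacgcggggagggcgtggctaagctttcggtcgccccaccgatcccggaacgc
Eif2ak2, chr17:78882523-78882822, minus strand: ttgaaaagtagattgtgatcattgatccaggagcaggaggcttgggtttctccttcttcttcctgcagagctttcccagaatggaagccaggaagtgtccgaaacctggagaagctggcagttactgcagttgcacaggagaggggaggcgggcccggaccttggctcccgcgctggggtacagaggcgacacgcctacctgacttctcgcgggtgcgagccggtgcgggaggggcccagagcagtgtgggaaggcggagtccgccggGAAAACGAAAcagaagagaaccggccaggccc
Ifitm3, chr7:141010695-141010994, minus strand: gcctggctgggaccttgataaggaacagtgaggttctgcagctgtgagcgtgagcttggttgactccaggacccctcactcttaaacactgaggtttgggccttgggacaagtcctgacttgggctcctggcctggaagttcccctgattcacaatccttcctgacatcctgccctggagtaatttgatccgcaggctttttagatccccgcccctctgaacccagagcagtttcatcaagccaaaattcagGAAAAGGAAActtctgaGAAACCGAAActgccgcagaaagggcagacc
Rigi, chr4:40239776-40240075, minus strand: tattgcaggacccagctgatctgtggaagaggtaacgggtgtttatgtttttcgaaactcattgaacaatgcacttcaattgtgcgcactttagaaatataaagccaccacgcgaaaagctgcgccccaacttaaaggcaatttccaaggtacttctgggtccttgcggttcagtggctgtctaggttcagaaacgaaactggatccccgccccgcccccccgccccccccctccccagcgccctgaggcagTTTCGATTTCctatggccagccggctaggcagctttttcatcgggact
B2m, chr2:122147437-122147736, plus strand: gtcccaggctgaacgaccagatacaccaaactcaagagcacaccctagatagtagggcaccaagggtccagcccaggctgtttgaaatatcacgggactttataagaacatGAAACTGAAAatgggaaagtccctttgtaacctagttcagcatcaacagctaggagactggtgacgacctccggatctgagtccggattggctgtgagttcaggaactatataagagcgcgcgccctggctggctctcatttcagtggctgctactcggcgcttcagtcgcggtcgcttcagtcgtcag
Isg15, chr4:156200769-156201068, minus strand: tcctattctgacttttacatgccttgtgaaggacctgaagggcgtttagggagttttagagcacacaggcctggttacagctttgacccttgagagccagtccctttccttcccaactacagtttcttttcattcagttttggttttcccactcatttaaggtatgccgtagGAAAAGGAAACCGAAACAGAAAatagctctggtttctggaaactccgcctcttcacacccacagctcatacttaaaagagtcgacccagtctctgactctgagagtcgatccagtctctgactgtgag

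The matches lay shortly before the start in Ifitm2 and Isg15 and further upstream in B2m and Stat2. Those of Ifitm3, Rigi and Eif2ak2 lay just after the start. The bases soon after the Stat2 start were found in no annotated transcript of Stat2, unlike those of the other printed promoters. The position of the Stat2 match is thus less certain. Isg15 had 3 overlapping matches, from 78 to 57 bases before its start. The genes with a match spanned nearly the whole range of levels of the 37 genes. The mean over the 9 libraries was 153 CPM for Ifitm2 and 0.037 CPM for Isg15.

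**Figure D1:**
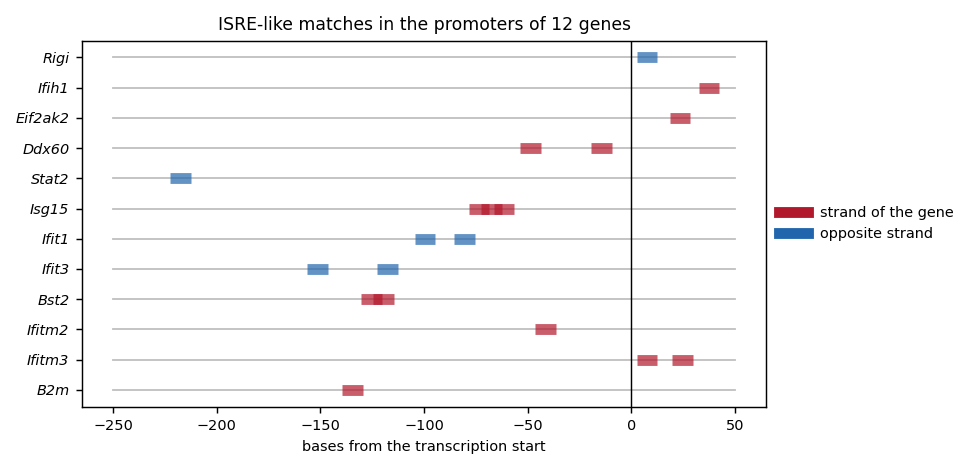
ISRE-like matches in the promoters of the 12 genes that have one. The horizontal axis gives the distance in bases from the RefSeq transcription start, each grey line is a promoter of 300 bases, and bars mark matches on the strand of the gene or on the opposite strand. Isg15 shows 3 overlapping matches before the start, and Rigi, Ifih1, Eif2ak2 and Ifitm3 have theirs after it.

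Against J1, both stable lines had less RNA of most of these genes. In the EWS-OCT4 line 5 of the 31 tested genes were higher than in J1 and 20 were lower, where 61.9% of all tested genes were called, 30.3% higher and 31.6% lower. In the OCT4 line 4 were higher than in J1 and 20 were lower, where 67% of all tested genes were called, 34.3% higher and 32.7% lower. The median log2 fold change of the 31 genes was -0.56 in EWS-OCT4 versus J1 and -0.66 in OCT4 versus J1, beside 0.00 and 0.01 for all tested genes. At least 2-fold lower were 10 of the 31 genes in EWS-OCT4 versus J1 and 10 in OCT4 versus J1, where 12.5% and 11.5% of all tested genes were. At least 2-fold higher were 0 genes in EWS-OCT4 versus J1 and 1 gene, Tap1, in OCT4 versus J1, where 8.1% and 15% of all tested genes were. The libraries did not overlap for 27 of the 31 genes in EWS-OCT4 versus J1 and 25 in OCT4 versus J1, against 65.7% and 68.4% of all tested genes. Both comparisons use the same J1 libraries. The genes lower in both were Rigi, Dhx58, Tlr3, Eif2ak2, Zbp1, Samhd1, Ddx60, Irf1, Ifit2, Bst2, Ifitm1, Ifitm2, Psmb8, Tap2, B2m, H2-K1 and H2-D1, which are 17 of the 31.

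Between the stable lines the genes were split. In EWS-OCT4 versus OCT4, 11 of the 31 genes were higher and 7 lower, where 66.5% of all tested genes were called, 31.9% higher and 34.6% lower. That is 18 of 31 called, no larger a share than among all genes. The median log2 fold change was 0.05, against -0.04 for all tested genes. By at least 2-fold, 1 gene was higher (Rigi) and 2 were lower (Sting1 and Tap1), where 8.54% and 15.8% of all tested genes were. The libraries of the stable lines did not overlap for 22 of the 31 genes, against 72.9% of all tested genes.

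**Figure D2:**
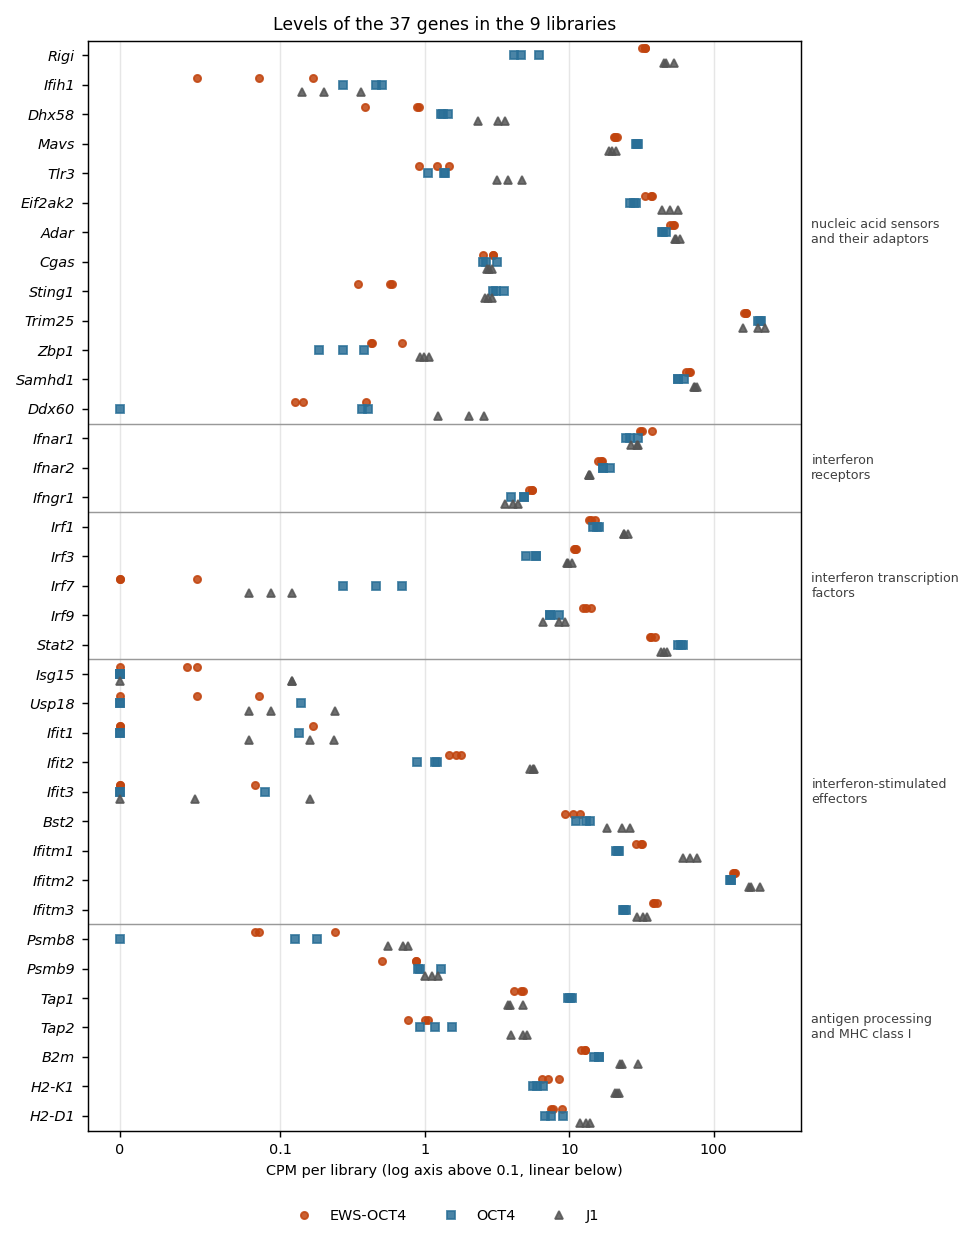
CPM of the 37 genes in each of the 9 libraries, on an axis that is logarithmic above 0.1 CPM and linear below. Each symbol is 1 library, and genes are grouped by role. The J1 symbols lie to the right of both stable lines for most effectors and MHC class I genes, Rigi is lowest in the OCT4 line, and Sting1 is lowest in the EWS-OCT4 line.

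Among the nucleic acid sensors and adaptors, 12 of 13 could be tested. Between the stable lines, 4 were higher and 4 lower in EWS-OCT4, with a median log2 fold change of -0.02. In EWS-OCT4 versus J1, 0 were higher and 9 lower (median -0.52), and in OCT4 versus J1, 1 was higher and 8 lower (median -0.61).

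Rigi, the cytosolic helicase that recognises RNA ends bearing a triphosphate, had the largest difference between the stable lines of the 31 genes. It had 33.4, 31.7 and 33.7 CPM in EWS-OCT4 libraries, 6.14, 4.65 and 4.12 CPM in OCT4 libraries and 52.7, 45.5 and 47.1 CPM in J1 libraries. The 3 groups did not overlap, and the OCT4 line stood far below the other two. Rigi was 6.64-fold higher in EWS-OCT4 than in OCT4 (log2 fold change 2.73, SE 0.117, edgeR adjusted p = 1.94e-12). It was 9.77-fold lower in OCT4 than in J1 (log2 fold change -3.29, SE 0.116, edgeR adjusted p = 1.08e-13). In EWS-OCT4 it was 1.47-fold lower than in J1 (log2 fold change -0.56, SE 0.0948, edgeR adjusted p = 6.6e-05). Among all 16562 genes, Rigi ranked 155 from the top in EWS-OCT4 versus OCT4 and 136 from the bottom in OCT4 versus J1. Its promoter is printed above, with an ISRE-like match on the opposite strand from base 3 to base 12 after the start.

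The other RIG-I-like receptors were scarce. Ifih1, which encodes MDA5, the sensor of long duplex RNA, had 0.0481, 0.0866 and 0.169 CPM in EWS-OCT4, 0.462, 0.271 and 0.504 CPM in OCT4 and 0.362, 0.2 and 0.141 CPM in J1. With 7, 28 and 17 counts over the 3 libraries of EWS-OCT4, OCT4 and J1, it did not pass the filter on low counts. With no filter, it was lower in EWS-OCT4 than in OCT4 (edgeR adjusted p = 0.019), as it was in the 7 fits with a library left out that kept it (edgeR adjusted p from 0.00868 to 0.0443), and was not called against J1. Dhx58, which encodes LGP2, a helicase that modulates the other receptors, averaged 0.726 CPM in EWS-OCT4, 1.36 in OCT4 and 3.05 in J1. It was lower than in J1 in both lines, with a log2 fold change of -2.04 (SE 0.279, edgeR adjusted p = 6.43e-06) in EWS-OCT4 and -1.15 (SE 0.255, edgeR adjusted p = 0.000651) in OCT4. Its lower level in EWS-OCT4 than in OCT4 (log2 fold change -0.88, edgeR adjusted p = 0.0173) was not called without EWS-OCT4 replicate 1, which gave -0.58 and 0.0996, the highest value of all alternatives.

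The signalling adaptors did not follow the receptors. Mavs had 21.3, 20.4 and 20.6 CPM in EWS-OCT4, 29.7, 29.5 and 28.8 CPM in OCT4 and 21.2, 19.9 and 19 CPM in J1. The OCT4 libraries were all above the others, and EWS-OCT4 overlapped J1. Mavs was lower in EWS-OCT4 than in OCT4 by a log2 fold change of -0.50 (SE 0.0775, edgeR adjusted p = 2.03e-05) and higher in OCT4 than in J1 by 0.55 (SE 0.0775, edgeR adjusted p = 6.36e-06). Sting1, the adaptor downstream of cGAS, had 0.577, 0.346 and 0.59 CPM in EWS-OCT4, 2.96, 3.12 and 3.53 CPM in OCT4 and 2.61, 2.91 and 2.73 CPM in J1. Every EWS-OCT4 library was below every other library. The log2 fold change was -2.66 in EWS-OCT4 versus OCT4 (SE 0.244, edgeR adjusted p = 3.77e-08) and -2.44 in EWS-OCT4 versus J1 (SE 0.247, edgeR adjusted p = 1.79e-07), 6.31-fold and 5.42-fold lower. In OCT4 versus J1 it was not called (log2 fold change 0.22, SE 0.191). Cgas, the DNA sensor that makes the messenger for STING, averaged 2.82, 2.77 and 2.81 CPM in EWS-OCT4, OCT4 and J1 and was not called in any comparison. Its SE of at most 0.175 on the log2 scale bounds how small a difference could have been seen.

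Tlr3, the endosomal receptor of duplex RNA, had 0.914, 1.47 and 1.22 CPM in EWS-OCT4, 1.39, 1.36 and 1.05 CPM in OCT4 and 4.7, 3.15 and 3.76 CPM in J1. The stable lines overlapped each other and lay below all J1 libraries. Tlr3 was 3.19-fold lower in EWS-OCT4 than in J1 (log2 fold change -1.68, SE 0.232, edgeR adjusted p = 7.29e-06) and 3.06-fold lower in OCT4 than in J1 (-1.62, SE 0.231, edgeR adjusted p = 7.47e-06). Tlr3 lies on chromosome 8, where the median of all tested genes was itself below J1, at -0.41 in EWS-OCT4 and -0.49 in OCT4. Chromosome 11 had medians of -0.46 and -0.49, while other autosomes ran from -0.29 to 0.24 in EWS-OCT4 and from -0.24 to 0.15 in OCT4. Relative to its chromosome's median Tlr3 was at -1.26 in EWS-OCT4 and -1.12 in OCT4. The 6 tested genes on these chromosomes are Tlr3, Ddx60 and Bst2 on chromosome 8 and Dhx58, Trim25 and Irf1 on chromosome 11. Without them, 5 of 25 genes were higher and 14 lower in EWS-OCT4 versus J1, and 4 were higher and 15 lower in OCT4 versus J1. Why these chromosomes lay lower was not tested.

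Eif2ak2, which encodes PKR, a kinase that halts translation on binding duplex RNA, was abundant. It had 37.7, 33.2 and 36.6 CPM in EWS-OCT4, 28.8, 28.3 and 26.2 CPM in OCT4 and 44.2, 50.2 and 56.8 CPM in J1. The groups did not overlap, with EWS-OCT4 between the other two. Eif2ak2 was higher in EWS-OCT4 than in OCT4 by a log2 fold change of 0.37 (SE 0.0917, edgeR adjusted p = 0.00187). It was lower in EWS-OCT4 than in J1 by -0.49 (SE 0.0891, edgeR adjusted p = 0.000127) and lower in OCT4 than in J1 by -0.86 (SE 0.0905, edgeR adjusted p = 1.8e-07). The same order held for Adar, the RNA editing enzyme that marks self RNA, which averaged 51.7 ± 1.56, 45 ± 1.21 and 55.5 ± 2.23 CPM in EWS-OCT4, OCT4 and J1 (SD, n = 3). It was higher in EWS-OCT4 than in OCT4 by 0.20 (edgeR adjusted p = 0.0137) and lower in OCT4 than in J1 by -0.30 (edgeR adjusted p = 0.000641), and EWS-OCT4 versus J1 was not called.

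The remaining sensors ranged widely in level. Trim25, a ubiquitin ligase that acts on RIG-I, averaged 166 CPM in EWS-OCT4, 208 in OCT4 and 196 in J1. It was lower in EWS-OCT4 than in OCT4 by a log2 fold change of -0.33 (SE 0.0945, edgeR adjusted p = 0.00546). The J1 libraries were spread from 159 to 227 CPM, and EWS-OCT4 overlapped them. The call of a lower level in EWS-OCT4 than in J1 (log2 fold change -0.24, edgeR adjusted p = 0.0334) was lost without EWS-OCT4 replicate 1, 2 or 3 (0.114, 0.0854 and 0.0733) and without J1 replicate 1 or 3 (0.156 and 0.107), as well as with limma-voom (0.0515) and with only the 6 libraries compared (0.0574). Samhd1, which breaks down nucleotides that viruses need, averaged 66.5, 58.4 and 74.7 CPM in EWS-OCT4, OCT4 and J1, again with EWS-OCT4 in between. It was lower in OCT4 than in J1 by -0.36 (SE 0.0653, edgeR adjusted p = 0.000115). Its calls in EWS-OCT4, higher than in OCT4 by 0.19 (edgeR adjusted p = 0.0175) and lower than in J1 by -0.17 (0.0336), changed with the library left out. The first was lost without EWS-OCT4 replicate 3 (0.0576) or OCT4 replicate 2 or 3 (0.0661 and 0.0725), and with upper-quartile scaling (0.0506). The second was lost without any EWS-OCT4 replicate (0.157, 0.103 and 0.0598) and without J1 replicate 1 or 3 (0.0528 and 0.0502), and with no filter on low counts (0.112).

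Zbp1, a sensor of left-handed nucleic acid that can trigger cell death, and Ddx60, a helicase linked to RIG-I signalling, were near the limit of detection. Both passed the filter on low counts only through J1, which favours a lower call against J1. Zbp1 averaged 0.516 CPM in EWS-OCT4, 0.278 in OCT4 and 0.996 in J1. It was lower in OCT4 than in J1 by a log2 fold change of -1.81 (SE 0.379, edgeR adjusted p = 0.000404). In EWS-OCT4 versus J1 it was called at -0.94 (edgeR adjusted p = 0.0238). Leaving out EWS-OCT4 replicate 1 or 3 (0.0869 and 0.095) or J1 replicate 2 or 3 (0.0731 and 0.0514) removed that call, as did leaving out the filter (0.0538) and DESeq2 (0.0675). Ddx60 averaged 0.22 CPM in EWS-OCT4, 0.259 in OCT4 and 1.94 in J1, and was lower than in J1 by -3.09 (SE 0.556, edgeR adjusted p = 0.000162) in EWS-OCT4 and -2.91 (SE 0.544, edgeR adjusted p = 0.000188) in OCT4.

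Among the roles of the 37 genes, the 3 interferon receptors were the only role without a gene called lower in any of the 3 comparisons. This does not extend to every receptor gene. Ifnlr1, from the other list of receptors and kinases below, was lower than in J1 in both lines. Its log2 fold change was -0.49 in EWS-OCT4 (edgeR adjusted p = 0.00307) and -0.38 in OCT4 (edgeR adjusted p = 0.0142). Of the 3 receptors among the 37 genes, 1 was higher in EWS-OCT4 than in OCT4. All 3 were higher in EWS-OCT4 versus J1, and in OCT4 versus J1, 1 was higher. Ifnar1, which with Ifnar2 forms the type I interferon receptor, had 37.3, 32.1 and 30.8 CPM in EWS-OCT4, 29.9, 26.4 and 24.8 CPM in OCT4 and 29.3, 26.7 and 29.7 CPM in J1. All EWS-OCT4 libraries were above all others, by a small margin. The log2 fold change was 0.31 in EWS-OCT4 versus OCT4 (SE 0.0925, edgeR adjusted p = 0.00764) and 0.22 in EWS-OCT4 versus J1 (SE 0.0919, edgeR adjusted p = 0.0426). Leaving out EWS-OCT4 replicate 1 (0.208), OCT4 replicate 2 (0.0516) or J1 replicate 2 or 3 (0.111 and 0.0541) removed the second call, as did upper-quartile scaling (0.101), a minimum of 5 CPM (0.101) and a fit of only the 6 libraries compared (0.0522). Ifnar2 averaged 16.4, 17.8 and 13.7 CPM in EWS-OCT4, OCT4 and J1 and was the only gene of the 31 called higher than J1 in both lines. Its log2 fold change was 0.26 (SE 0.0867, edgeR adjusted p = 0.0162) in EWS-OCT4 and 0.38 (SE 0.0862, edgeR adjusted p = 0.000885) in OCT4. Exons of Ifnar2 overlap those of Gm21970 on the same strand, and 9.45% of its 31-base words are shared with other annotated genes, so reads may be mixed. Ifngr1, the ligand-binding chain of the interferon-gamma receptor, averaged 5.43, 4.57 and 4.05 CPM and was higher in EWS-OCT4 than in J1 by 0.42 (SE 0.148, edgeR adjusted p = 0.0204), a call lost without J1 replicate 3 (0.0728).

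Of the 5 transcription factors, Irf7 did not pass the filter on low counts. Of the other four, 2 were higher and 1 lower in EWS-OCT4 versus OCT4, and in each comparison with J1, 1 was higher and 2 were lower. Irf3, which is activated by phosphorylation downstream of MAVS and STING, had 11.1, 11 and 10.8 CPM in EWS-OCT4, 5.91, 5.87 and 5.04 CPM in OCT4 and 9.84, 10.5 and 9.59 CPM in J1. The OCT4 line was low and apart from the others. Irf3 was 1.96-fold higher in EWS-OCT4 than in OCT4 (log2 fold change 0.97, SE 0.112, edgeR adjusted p = 6.63e-07) and 1.78-fold lower in OCT4 than in J1 (-0.84, SE 0.112, edgeR adjusted p = 3.71e-06). Irf3 shares exon sequence on the opposite strand with Bcl2l12, and since it is not given whether counting used strand, reads of the pair may be mixed.

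Stat2, a subunit of the complex that binds ISREs, had 36, 39.5 and 36.9 CPM in EWS-OCT4, 56.4, 59.1 and 60.9 CPM in OCT4 and 43.1, 45.5 and 47.3 CPM in J1. The 3 lines did not overlap, and J1 lay between the stable lines. Stat2 was lower in EWS-OCT4 than in OCT4 by a log2 fold change of -0.65 (SE 0.0709, edgeR adjusted p = 3.23e-07). It was lower in EWS-OCT4 than in J1 by -0.27 (SE 0.0713, edgeR adjusted p = 0.00307) and higher in OCT4 than in J1 by 0.38 (SE 0.0701, edgeR adjusted p = 0.000125). Irf9, the DNA-binding partner of STAT2, moved the other way. It averaged 13.2 ± 0.911 CPM in EWS-OCT4, 7.73 ± 0.624 in OCT4 and 8.15 ± 1.46 in J1 (SD, n = 3). It was higher in EWS-OCT4 than in OCT4 by 0.78 (SE 0.129, edgeR adjusted p = 4.14e-05) and than in J1 by 0.70 (SE 0.127, edgeR adjusted p = 0.00013), and OCT4 versus J1 was not called. Exons of Irf9 overlap those of Rnf31 on the same strand, and 5.84% of its 31-base words are shared with other annotated genes, so reads may be mixed. Irf1, an early interferon-gamma response factor, averaged 14.3, 15.4 and 24.4 CPM in EWS-OCT4, OCT4 and J1. It was lower than in J1 by -0.77 in EWS-OCT4 and -0.66 in OCT4 (edgeR adjusted p = 4.68e-07 and 1.75e-06), or -0.31 and -0.17 relative to the median of its chromosome, 11. Irf7, which amplifies the response and is itself interferon-stimulated, had 0.0481, 0 and 0 CPM in EWS-OCT4, 0.693, 0.271 and 0.462 CPM in OCT4 and 0.0803, 0.12 and 0.094 CPM in J1, or 1, 32 and 7 counts. The OCT4 libraries were above all others. With no filter on low counts, Irf7 was lower in EWS-OCT4 than in OCT4 (edgeR adjusted p = 3.46e-05) and higher in OCT4 than in J1 (edgeR adjusted p = 0.00909). The 7 fits with a library left out that kept Irf7 gave edgeR adjusted p from 0.000126 to 0.0017 and from 0.00307 to 0.0163 for these differences. Against J1, Irf7 in EWS-OCT4 was not called with no filter (edgeR adjusted p = 0.141) and was called lower only without EWS-OCT4 replicate 1 (0.0448). Irf7 shares exon sequence on the opposite strand with Phrf1. Since it is not given whether counting used strand, its few reads may be mixed with those of Phrf1.

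**Figure D3:**
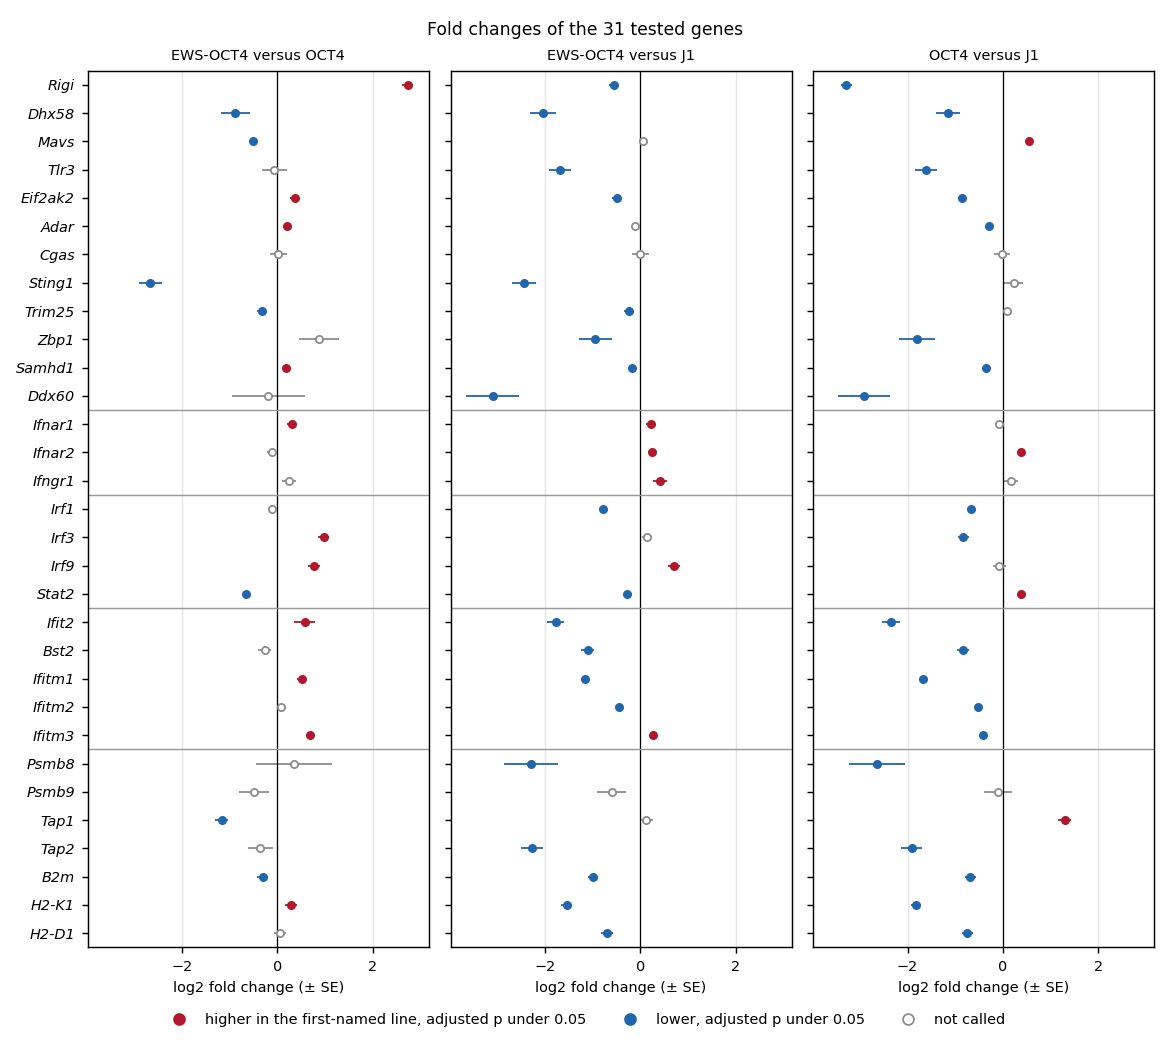
log2 fold changes of the 31 tested genes in the 3 comparisons, with bars of 1 SE, in the order of the roles. Filled points are called at an edgeR adjusted p under 0.05, red higher and blue lower in the first-named line, and open points are not called. Most effector and MHC class I points lie left of 0 in both comparisons with J1. In EWS-OCT4 versus OCT4, Ifit2, Ifitm1 and Ifitm3 lie right of 0, and Tap1 lies furthest left among these genes.

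Of the 9 interferon-stimulated effectors, 4 had almost no RNA. Isg15, the ubiquitin-like modifier that interferon induces strongly, had 0.0481, 0 and 0.0421 CPM in EWS-OCT4, 0, 0 and 0 CPM in OCT4 and 0.121, 0.12 and 0 CPM in J1. Ifit1, which binds viral RNA lacking host cap methylation, had 0, 0 and 0.169 CPM in EWS-OCT4, 0, 0.136 and 0 CPM in OCT4 and 0.0803, 0.16 and 0.235 CPM in J1. Ifit3 and Usp18, the protease that removes ISG15, had 2 and 3 counts in all EWS-OCT4 libraries together, 2 and 3 in those of OCT4 and 5 and 10 in those of J1. At these depths 3 counts in a library, the limit that a count of 0 allows, equal 0.121 to 0.142 CPM, which covers counting error only. With no filter on low counts, Isg15, Ifit1, Ifit3 and Usp18 were not called in any comparison (edgeR adjusted p from 0.0742 up), and at these depths a difference was not detectable. Ifit3 also shares 61.8% of its 31-base words with other annotated genes, most often with Ifit3b, so its few reads may belong to another gene.

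The other 5 effectors were all tested. Between the stable lines, 3 were higher and 0 lower in EWS-OCT4 (median log2 fold change 0.51). Against J1, 1 was higher and 4 lower in EWS-OCT4 (median -1.10), and in OCT4 versus J1, all 5 were lower (median -0.84). Ifit2, a relative of Ifit1 that binds RNA and restrains translation, had 1.78, 1.65 and 1.47 CPM in EWS-OCT4, 0.877, 1.22 and 1.18 CPM in OCT4 and 5.34, 5.71 and 5.64 CPM in J1. All stable line libraries were far below J1. It was 3.41-fold lower in EWS-OCT4 than in J1 (log2 fold change -1.77, SE 0.178, edgeR adjusted p = 1.62e-07) and 5.07-fold lower in OCT4 than in J1 (-2.34, SE 0.188, edgeR adjusted p = 5.35e-09). Its higher level in EWS-OCT4 than in OCT4 (0.57, edgeR adjusted p = 0.026) was lost without EWS-OCT4 replicate 1 (0.0651) or OCT4 replicate 1 (0.109), with no filter on low counts (0.0507) and with only the 6 libraries compared (0.0515).

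Bst2, which encodes tetherin, a protein that holds budding virions at the cell surface, had 10.6, 11.8 and 9.31 CPM in EWS-OCT4, 11.1, 13 and 14 CPM in OCT4 and 18.3, 26.5 and 23.3 CPM in J1. The stable lines overlapped, and both lay below J1. Bst2 was 2.15-fold lower in EWS-OCT4 than in J1 (log2 fold change -1.10, SE 0.133, edgeR adjusted p = 1.8e-06) and 1.79-fold lower in OCT4 than in J1 (-0.84, SE 0.13, edgeR adjusted p = 2.26e-05). Relative to the median of chromosome 8 it was at -0.69 and -0.35. Without J1 replicate 1, Bst2 was also called lower in EWS-OCT4 than in OCT4 (log2 fold change -0.26, edgeR adjusted p = 0.0401, against 0.104 with all libraries).

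The IFITM genes encode small membrane proteins that block virus entry by fusion, and ES cells express them without added interferon. Ifitm1 had 28.8, 31.9 and 31.5 CPM in EWS-OCT4, 21.9, 21.1 and 21.8 CPM in OCT4 and 76.1, 68.6 and 61.7 CPM in J1. The groups did not overlap, with J1 highest, EWS-OCT4 next and OCT4 lowest. Ifitm1 was 2.24-fold lower in EWS-OCT4 than in J1 (log2 fold change -1.16, SE 0.0816, edgeR adjusted p = 1.78e-09) and 3.18-fold lower in OCT4 than in J1 (-1.67, SE 0.0839, edgeR adjusted p = 1.08e-11). Between the stable lines Ifitm1 was higher in EWS-OCT4 by 0.51 (SE 0.0858, edgeR adjusted p = 5.12e-05). Ifitm3 had 40.5, 37.9 and 38.8 CPM in EWS-OCT4, 23.9, 24.8 and 23.7 CPM in OCT4 and 34.6, 32.5 and 29.5 CPM in J1. Here J1 lay between the stable lines, with no overlap. Ifitm3 was higher in EWS-OCT4 than in OCT4 by 0.69 (SE 0.0782, edgeR adjusted p = 4.87e-07) and than in J1 by 0.28 (SE 0.0766, edgeR adjusted p = 0.00452), and lower in OCT4 than in J1 by -0.42 (SE 0.0786, edgeR adjusted p = 0.000149). Ifitm2 averaged 138 ± 2.63 CPM in EWS-OCT4, 131 ± 1.12 in OCT4 and 189 ± 18.4 in J1 (SD, n = 3). It was lower than in J1 by -0.45 in EWS-OCT4 and -0.53 in OCT4 (edgeR adjusted p = 2.8e-05 and 3.78e-06) and was not called between the stable lines. Ifitm2, Ifitm3 and Ifitm1 share 55.5%, 20.5% and 14.7% of their 31-base words with other annotated genes, so their counts carry that uncertainty.

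Per kilobase of the longest annotated protein-coding transcript, which allows genes to be compared, the 3 IFITM genes and Trim25 had the 4 highest levels of the 37 genes in all 3 lines. Ifitm2 ranked highest of the 37, with 211 CPM per kb in EWS-OCT4, 200.0 in OCT4 and 288 in J1. Ifitm3 stood at 57.6, 35.6 and 47.5 CPM per kb and Ifitm1 at 34.8, 24.5 and 78. Trim25 stood at 29.6, 37.2 and 35.1 CPM per kb, and B2m, the light chain of MHC class I, at 14.7, 18.2 and 29.2. The transcript lengths come from GENCODE release M21, an annotation of an older build, and isoform use in these cells was not measured.

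The antigen processing and MHC class I genes were all tested. Between the stable lines, 1 of 7 was higher and 2 were lower in EWS-OCT4. In EWS-OCT4 versus J1, 0 were higher and 5 lower (median log2 fold change -0.99). In OCT4 versus J1, 1 was higher and 5 were lower (median -0.75). H2-K1, a classical MHC class I heavy chain, had 8.51, 7.14 and 6.53 CPM in EWS-OCT4, 6.6, 5.96 and 5.63 CPM in OCT4 and 20.8, 21.4 and 22.2 CPM in J1. The stable lines overlapped at the edge and were well below J1. H2-K1 was 2.91-fold lower in EWS-OCT4 than in J1 (log2 fold change -1.54, SE 0.109, edgeR adjusted p = 1.95e-09) and 3.54-fold lower in OCT4 than in J1 (-1.82, SE 0.111, edgeR adjusted p = 1.39e-10). Its call between the stable lines (0.28, edgeR adjusted p = 0.0476) failed without EWS-OCT4 replicate 1 or 2 (0.189 and 0.0521) or OCT4 replicate 2 or 3 (0.103 and 0.155). It also failed with upper-quartile scaling (0.0828), a minimum of 5 CPM (0.0815), DESeq2 (0.0529) and limma-voom (0.0741).

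H2-D1, the other classical heavy chain tested, had 8.85, 7.53 and 7.75 CPM in EWS-OCT4, 6.74, 9.04 and 7.44 CPM in OCT4 and 11.9, 14 and 13.1 CPM in J1. The stable lines overlapped and lay below all J1 libraries, with a log2 fold change of -0.69 (SE 0.122, edgeR adjusted p = 9.97e-05) in EWS-OCT4 versus J1 and -0.75 (SE 0.123, edgeR adjusted p = 3.68e-05) in OCT4 versus J1. H2-D1 and H2-K1 share 27.5% and 23.3% of their 31-base words with other annotated genes, most often with each other. Reads of one may thus be counted as the other or as another gene. B2m had 12.1, 12.9 and 12.8 CPM in EWS-OCT4, 14.9, 16 and 16.1 CPM in OCT4 and 30, 22.3 and 23 CPM in J1. The 3 lines did not overlap, with EWS-OCT4 lowest. B2m was 1.99-fold lower in EWS-OCT4 than in J1 (log2 fold change -0.99, SE 0.108, edgeR adjusted p = 4.29e-07) and 1.6-fold lower in OCT4 than in J1 (-0.68, SE 0.106, edgeR adjusted p = 1.93e-05). Between the stable lines it was lower in EWS-OCT4 by -0.31 (edgeR adjusted p = 0.0211), which failed on leaving out EWS-OCT4 replicate 1 or 2 (0.0984 and 0.0564) or OCT4 replicate 2 or 3 (0.0601 and 0.0612).

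The paired peptide transporter subunits TAP1 and TAP2, which carry peptides into the endoplasmic reticulum, did not move together. Tap1 had 4.62, 4.76 and 4.17 CPM in EWS-OCT4, 10.1, 10.4 and 9.87 CPM in OCT4 and 3.78, 3.87 and 4.8 CPM in J1. The OCT4 libraries were all above the others, and EWS-OCT4 overlapped J1. Tap1 was 2.25-fold lower in EWS-OCT4 than in OCT4 (log2 fold change -1.17, SE 0.131, edgeR adjusted p = 4.64e-07) and 2.45-fold higher in OCT4 than in J1 (1.29, SE 0.132, edgeR adjusted p = 1.13e-07). Tap2 averaged 0.939 CPM in EWS-OCT4, 1.21 in OCT4 and 4.58 in J1. It was 4.83-fold lower in EWS-OCT4 than in J1 (log2 fold change -2.27, SE 0.227, edgeR adjusted p = 1.46e-07) and 3.77-fold lower in OCT4 than in J1 (-1.91, SE 0.218, edgeR adjusted p = 4.82e-07). Psmb8 and Psmb9, the immunoproteasome subunits encoded beside the TAP genes, were scarce. Psmb8 averaged 0.137, 0.102 and 0.676 CPM in EWS-OCT4, OCT4 and J1 and was lower than in J1 in both lines (log2 fold change -2.29 and -2.64, edgeR adjusted p = 0.00195 and 0.000747). Psmb8 passed the filter on low counts only through J1, which favours such calls. Psmb9 averaged 0.746, 1.04 and 1.12 CPM and was not called. Psmb9 and Tap1 overlap on opposite strands, so part of the reads of either may come from the other.

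**Figure D4:**
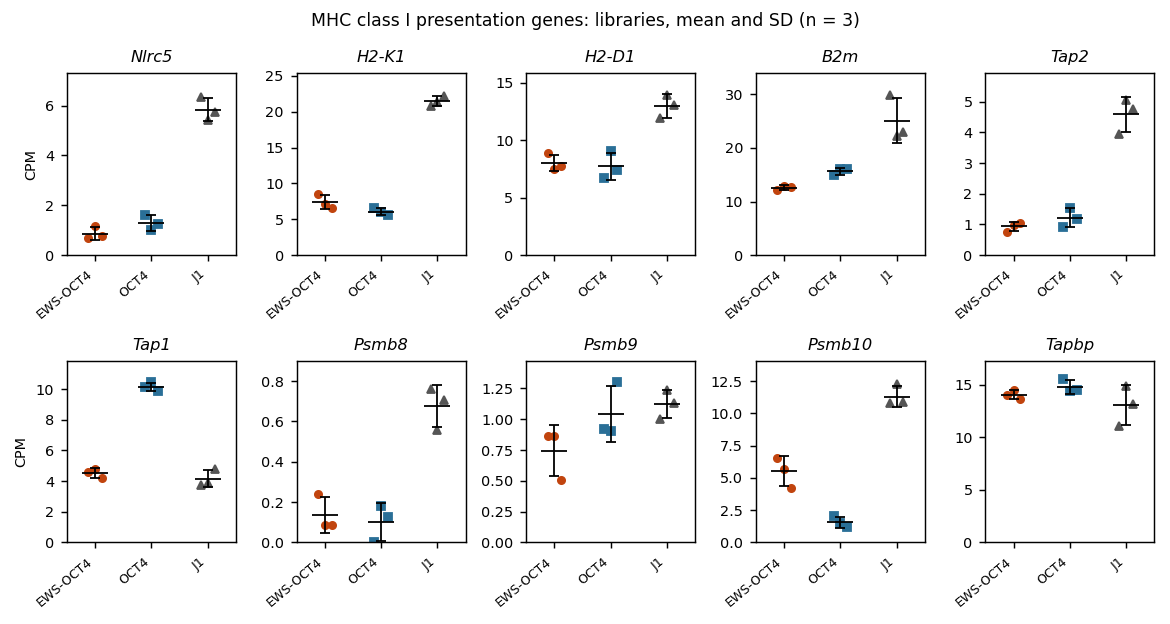
CPM of 10 genes of MHC class I presentation in each library, with the mean and SD of the 3 libraries of each line; each panel has its own vertical axis from 0. Nlrc5, H2-K1, H2-D1, B2m, Tap2 and Psmb8 are higher in J1 than in both stable lines, Tap1 is highest in the OCT4 line, and Tapbp was not called in any comparison.

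Sensors and downstream genes were also counted side by side. In EWS-OCT4 versus J1, 9 of 12 sensors and adaptors were lower, beside 9 of the 12 tested effectors and MHC class I genes, with medians of -0.52 and -1.05, where 31.6% of all tested genes were lower. In OCT4 versus J1, 8 of 12 and 10 of 12 were lower, with medians of -0.61 and -0.79, where 32.7% of all tested genes were lower. In EWS-OCT4 versus OCT4, 4 sensors were higher and 4 lower, beside 4 higher and 2 lower among effectors and MHC class I genes, with medians of -0.02 and 0.06. These counts were not tested against each other.

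**Figure D5:**
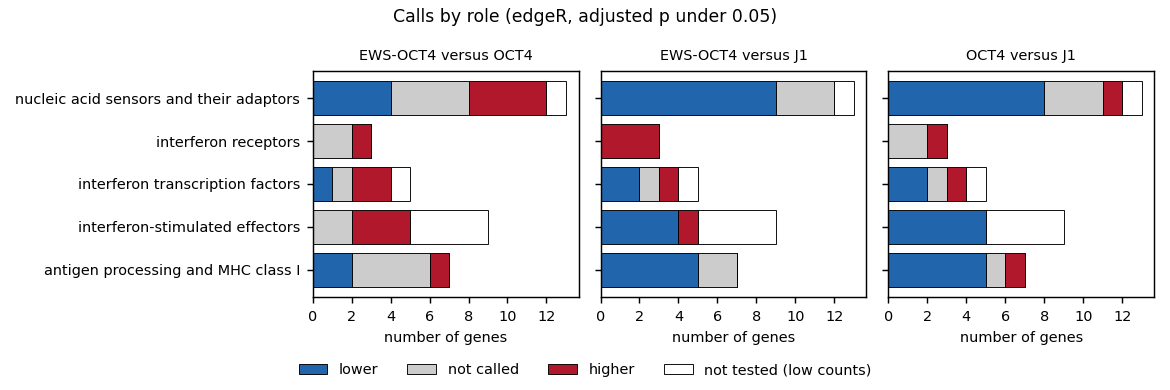
Number of genes called lower, not called, called higher or not tested for low counts, by role and comparison (edgeR adjusted p under 0.05). Lower calls make up most of the tested genes among sensors, effectors and MHC class I genes in both comparisons with J1, while receptors have none.

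Other genes of the same pathways were taken from a list of 105, of which 78 could be tested. Of these, 30 were higher and 32 lower in EWS-OCT4 versus OCT4. Against J1, 14 were higher and 36 lower in EWS-OCT4, and 23 were higher and 36 lower in OCT4. For this list and each list in it, the shares of all tested genes higher and lower were 31.9% and 34.6% in EWS-OCT4 versus OCT4, 30.3% and 31.6% in EWS-OCT4 versus J1, and 34.3% and 32.7% in OCT4 versus J1. None of the 13 interferon genes listed could be tested: Ifnb1, the first interferon made after sensing, had no count in any library, and Ifnz, Ifnl2 and Ifnl3 had at most 1 count over the libraries of a line.

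Among the 10 receptors and kinases, 2 were higher and 6 lower in EWS-OCT4 versus OCT4 (median log2 fold change -0.57, against -0.04 for all tested genes), 5 were higher and 4 lower in EWS-OCT4 versus J1, and 6 were higher and 1 lower in OCT4 versus J1. Jak1, a kinase of both interferon receptors, averaged 53 ± 3.44 CPM in EWS-OCT4, 73.5 ± 3.66 in OCT4 and 38.8 ± 4.48 in J1 (SD, n = 3). It was higher than in J1 by a log2 fold change of 0.45 in EWS-OCT4 and 0.92 in OCT4 (edgeR adjusted p = 0.000185 and 2.8e-08). Tyk2, the partner of JAK1 on the type I receptor, averaged 32.4, 18.5 and 15.7 CPM and was 1.75-fold higher in EWS-OCT4 than in OCT4 (log2 fold change 0.81, SE 0.0798, edgeR adjusted p = 9.25e-08). Socs3, a feedback inhibitor that LIF also induces, averaged 73 CPM in EWS-OCT4, 187 in OCT4 and 85.1 in J1, and was 2.56-fold lower in EWS-OCT4 than in OCT4 (log2 fold change -1.36, SE 0.0707, edgeR adjusted p = 2.19e-11).

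Among the 21 tested genes of sensing and signalling, 7 were higher and 10 lower in EWS-OCT4 versus OCT4, 4 higher and 6 lower in EWS-OCT4 versus J1, and 7 higher and 7 lower in OCT4 versus J1. Counts of 7 of 21 are close to the shares of all tested genes. Aim2, a cytosolic DNA sensor that forms an inflammasome, had the order of Rigi. It had 11.7, 11.3 and 13 CPM in EWS-OCT4, 3.69, 4.25 and 3.28 CPM in OCT4 and 42.9, 42.5 and 43.6 CPM in J1. It was 3.22-fold higher in EWS-OCT4 than in OCT4 (log2 fold change 1.69, SE 0.113, edgeR adjusted p = 6.05e-10) and 11.5-fold lower in OCT4 than in J1 (-3.52, SE 0.105, edgeR adjusted p = 1.36e-14). Zc3hav1, which encodes ZAP, a protein that binds CpG-rich viral RNA, was highest in the OCT4 line. It had 24.9, 24.2 and 24.6 CPM in EWS-OCT4, 119, 122 and 108 CPM in OCT4 and 27.5, 22.9 and 26.7 CPM in J1. It was 4.74-fold lower in EWS-OCT4 than in OCT4 (log2 fold change -2.25, SE 0.0805, edgeR adjusted p = 2.11e-13) and was not called between EWS-OCT4 and J1. Oas2, which makes the messenger that activates RNase L, averaged 5.23, 2.36 and 1.76 CPM in EWS-OCT4, OCT4 and J1 and was higher in EWS-OCT4 than in J1 by 1.57 (SE 0.199, edgeR adjusted p = 2.55e-06), while Oas3 averaged 2.48, 5.55 and 3.7 CPM and was highest in OCT4.

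Of the 7 tested interferon regulatory factors and their partners, 1 was higher and 6 lower in EWS-OCT4 versus OCT4, 1 higher and 2 lower in EWS-OCT4 versus J1, and 5 higher and 0 lower in OCT4 versus J1, beside the shares of all tested genes given above. Irf8, best known from myeloid cells, averaged 0.775 ± 0.229 CPM in EWS-OCT4, 8.03 ± 0.777 in OCT4 and 8.55 ± 1.11 in J1 (SD, n = 3). It was 10.4-fold lower in EWS-OCT4 than in OCT4 (log2 fold change -3.37, SE 0.202, edgeR adjusted p = 1.36e-10). Among 23 tested further interferon-stimulated genes, 11 were higher and 8 lower in EWS-OCT4 versus OCT4, 3 higher and 13 lower in EWS-OCT4 versus J1, and 5 higher and 14 lower in OCT4 versus J1. Dtx3l, a ubiquitin ligase that works with PARP9, averaged 15.5, 4.66 and 17.8 CPM in EWS-OCT4, OCT4 and J1 and was 3.33-fold higher in EWS-OCT4 than in OCT4 (log2 fold change 1.74, SE 0.112, edgeR adjusted p = 3.79e-10). Its partners Parp9, at 7.51, 4.92 and 9.6 CPM, and Parp14, at 9.24, 5.07 and 11.8 CPM, were also higher in EWS-OCT4 than in OCT4. Sp100, a nuclear body protein, had 4, 338 and 15 counts over the EWS-OCT4, OCT4 and J1 libraries.

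Among 17 tested further genes of MHC class I presentation, 9 were higher and 2 lower in EWS-OCT4 versus OCT4, 1 higher and 11 lower in EWS-OCT4 versus J1, and 0 higher and 14 lower in OCT4 versus J1, where 32.7% of all tested genes were lower. Nlrc5, the transactivator of MHC class I genes, had 0.673, 1.17 and 0.758 CPM in EWS-OCT4, 1.62, 0.994 and 1.26 CPM in OCT4 and 6.35, 5.43 and 5.74 CPM in J1. It was 6.67-fold lower in EWS-OCT4 than in J1 (log2 fold change -2.74, SE 0.226, edgeR adjusted p = 1.46e-08) and 4.52-fold lower in OCT4 than in J1 (-2.18, SE 0.213, edgeR adjusted p = 6.97e-08), and it lies on chromosome 8. Psmb10, the remaining catalytic subunit of the immunoproteasome, averaged 5.5 ± 1.16, 1.57 ± 0.433 and 11.3 ± 0.83 CPM in EWS-OCT4, OCT4 and J1 (SD, n = 3), also from chromosome 8, and was 3.51-fold higher in EWS-OCT4 than in OCT4 (log2 fold change 1.81, SE 0.203, edgeR adjusted p = 4.57e-07). The nonclassical heavy chain genes H2-Q4 and H2-T22 were lower than in J1 in both lines. H2-Q4 averaged 2.24, 1.27 and 8.58 CPM, and H2-T22 averaged 1.14, 1.68 and 5.37 CPM. H2-Q7 had 0, 65 and 133 counts over the EWS-OCT4, OCT4 and J1 libraries. Tapbp, which encodes tapasin, the link between MHC class I and TAP, averaged 14, 14.8 and 13.1 CPM and was not called in any comparison, with an SE of at most 0.106 on the log2 scale.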

How the data were processed

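RNA-seq libraries of total RNA were made with the CORALL V2 kit after RNAiso Plus extraction, per the labels' protocols. For each library the authors deposited a table of raw counts by gene symbol, as whole numbers. Salmon, STAR, fastp and GATK, and the build GRCm39, are listed without versions or roles, per the submitters' processing notes. Which annotation was used, and whether molecular identifiers or strand entered the counting, is not given in the sources used here.

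Sample titles gave the groups and replicate numbers. The counts of replicates differed beyond sampling noise (chi-square over its degrees of freedom from 3.36 to 32). Genes were kept by filterByExpr (minimum count 10, minimum total 15), which left 16562 of 40213 symbols, and 12189 symbols had no count. The 3 groups were fitted together over the 9 libraries with edgeR 4.0.16 in R 4.3.3 (TMM factors from 0.958 to 1.033, robust glmQLFit, glmQLFTest), and p-values were adjusted after Benjamini and Hochberg, with calls made under 0.05. The test was first checked on simulated counts. CPM values use scaled library sizes, and an SE is the absolute log2 fold change over the root of the F statistic. Chromosomes, transcript lengths, exon overlaps and shared 31-base words came from GENCODE M21 (GRCm38), and promoters from RefSeq (GRCm38.p6).

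The genes, their roles and the other lists were chosen with earlier results of these data known, and no list was tested as a set. Genes at least 2-fold changed with 5 CPM or more in the higher line, and a fixed list that includes Rigi, Ifih1, Tlr3, Mavs and Ifnar1, are given per library. Up to 3 genes per direction of each other list were named by the same minimum. A gene that this rule names is not reported here. Sting1, Sp100, H2-Q7 and the CPM per library of Aim2, Zc3hav1 and Nlrc5 were added after their values were seen. The alternatives changed the scaling (RLE, upper quartile), the filter (none, or a minimum of 5 CPM in 3 libraries), the tool (Wald test of DESeq2 1.42.0, voom of limma 3.58.1), or the samples (the 6 compared, or leaving out each library), or added the replicate block.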

Additional observations from a re-analysis of the deposited data

Results flagged for a closer look

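Stat2 and Ifitm3 were called in opposite directions against J1 in the 2 stable lines, and the difference between those lines was itself called. Stat2 was lower than J1 in EWS-OCT4 and higher than J1 in OCT4, and its log2 fold change in EWS-OCT4 versus OCT4 was -0.65 (SE 0.0709, edgeR adjusted p = 3.23e-07). Ifitm3 was higher than J1 in EWS-OCT4 and lower than J1 in OCT4, and its log2 fold change in EWS-OCT4 versus OCT4 was 0.69 (SE 0.0782, edgeR adjusted p = 4.87e-07). For both genes all 3 EWS-OCT4 libraries lay on the same side of all 3 OCT4 libraries. All 17 alternatives kept these calls between the stable lines.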

How the results depend on the processing

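Of 93 results (31 genes in 3 comparisons), 73 kept direction and call under every alternative that tested the gene, 15 to 17 of 17. Over all results, 1475 alternative values were unchanged in this sense, 48 were no longer called, 4 became called and 24 changed sign. With at least 5 CPM in 3 libraries only 22 of the 37 genes were tested, and 13 were lower in EWS-OCT4 versus J1. With a library left out, the genes higher and lower numbered 9 to 11 and 6 to 10 in EWS-OCT4 versus OCT4, 3 to 5 and 17 to 20 in EWS-OCT4 versus J1, and 4 to 6 and 20 in OCT4 versus J1. The lowest count, 3, came without J1 replicate 3. Every sign change was in a difference not called with all libraries, and the cause was not tested. In EWS-OCT4 versus OCT4, with a library left out, the log2 fold change ran from -0.208 to 0.118 for Tlr3, -0.861 to 0.312 for Ddx60, -0.239 to 0.966 for Psmb8, -0.0347 to 0.178 for H2-D1 and -0.038 to 0.119 for Cgas. Limma-voom gave 0.567 for Ddx60, and upper-quartile scaling -0.0152 for Cgas. In EWS-OCT4 versus J1, Cgas ran from -0.0259 to 0.0788 with a library left out, and was -0.0443 with upper-quartile scaling and -0.00154 with limma-voom. In OCT4 versus J1, Cgas ran from -0.112 to 0.0448, Trim25 from -0.0477 to 0.199 and Irf9 from -0.219 to 0.039 with a library left out, and Trim25 was called higher at 0.199 without J1 replicate 1 (edgeR adjusted p = 0.0255). Same-numbered libraries correlated between -0.0362 and 0.283 in their deviations from the group means, with 4 of 9 over 0.1, against -0.309 to 0.232 and 3 of 18 for other pairs. All 3 pairs of replicate 1 were over 0.1, but 1 of the other 6 same-numbered pairs was. Correlations were over 0 for 8 of 9 same-numbered pairs and 6 of 18 other pairs. Pairing was not settled by these values. With the replicate block, 11 genes were higher and 8 lower in EWS-OCT4 versus OCT4, 5 and 20 in EWS-OCT4 versus J1, and 4 and 20 in OCT4 versus J1. The block added Bst2 in EWS-OCT4 versus OCT4 (edgeR adjusted p = 0.0488) and changed no other call. With no filter on low counts all 37 genes were tested. Ifih1 and Irf7 then brought the lower calls in EWS-OCT4 versus OCT4 to 9, Irf7 the higher calls in OCT4 versus J1 to 5, and Ifit2, Zbp1 and Samhd1 each lost a call. Depth limits Isg15, Usp18, Ifit1 and Ifit3.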
